A study of Saccharomyces cerevisiae with 4 samples.

Results

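The seripauperin genes PAU1 to PAU24 of budding yeast (Saccharomyces cerevisiae), together with the cell wall mannoprotein genes DAN1, DAN4, TIR1 to TIR4, TIP1, CWP1 and CWP2, make a set of 33 genes chosen by systematic name. Of these, 31 are among the 5500 reading frames of the value table; PAU9 and CWP2 were not analysed here. A value on at least 1 array was present for 27 of them and a value on all 4 arrays for 21, which could be tested (15 PAU genes, 4 DAN and TIR genes, TIP1 and CWP1). The study hybridised polyadenylated RNA of a bre1 strain together with that of wild type on 4 2-colour arrays, with bre1 RNA in Cy3 on arrays 1 and 3 and in Cy5 on arrays 2 and 4. The labels name the strains only as bre1 and wild-type and give no kind of mutation, strain background, mating type, medium or aeration. BRE1 encodes the ubiquitin ligase for histone H2B. That mark is required before Set1 and Dot1 can fully methylate histone H3, and loss of these marks is known to weaken silencing near telomeres.

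Mannoproteins are heavily glycosylated proteins that form the outer layer of the yeast wall, many of them anchored through a remodelled glycosylphosphatidylinositol (GPI). In aerated cells Cwp1, Cwp2 and Tip1 are prominent, whereas DAN and TIR genes are repressed in air and induced when oxygen is scarce, when their products replace the aerobic set. The activator Upc2 and the repressors Mot3, Rox1 and Tup1-Cyc8 are known to act on these genes. Seripauperins are a large family of small, related proteins that lack the serine-rich stretch of the TIR proteins. Most PAU genes lie close to chromosome ends and many are also induced without oxygen.

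Each value is a log2 ratio of bre1 over wild type, so that a negative value means a lower signal in bre1. The direction is likely and not settled by the labels, and a numerical trait of the values bears on it. On arrays 2 and 4, 100% of the values were base-2 logarithms of whole multiples of a fixed step, within 0.02 of a step. On arrays 1 and 3 the same held for 100% of the values after the sign was turned. The other direction, and base 10 or e in either direction, gave 2.58% to 5.80%, about what the tolerance alone lets through. The values are therefore base-2 ratios, and the arrays with bre1 RNA in Cy3 were inverted relative to the ratio as recorded, while those with bre1 RNA in Cy5 were not. If the recorded ratio was Cy5 over Cy3, the usual order in scanner software but not stated here, every value is bre1 over wild type. BRE1 itself had log2 ratios of -1.65 on array 1 and -3.17 on array 3, the 2 arrays that measured it, and is low in bre1 on that reading. The median over all measured frames lay between -0.05 and 0.07 on the 4 arrays. The SD over these frames was 0.67, 0.57, 0.49 and 0.49 on arrays 1 to 4, so ratios in general spread more widely on arrays 1 and 2. Over the 3840 tested genes, arrays of opposite dye orientation correlated above 0 but unevenly. Pearson r was 0.65 for arrays 1 and 2, 0.24 for 1 and 4, 0.31 for 2 and 3, and 0.20 for 3 and 4. For arrays of the same orientation it was 0.75 for 1 and 3 and 0.54 for 2 and 4. Nothing in the labels tells whether separate cultures lie behind the 4 arrays, so a p-value here reflects array-to-array spread, possibly technical only. RNA came from whole cultures, in which fewer expressing cells and less RNA per cell cannot be told apart.

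The anaerobic wall genes of the DAN and TIR group included some of the lowest ratios on the arrays. TIR4, DAN1 and TIR2 fell by 2.07, 1.53 and 1.32 on the log2 scale, and TIR3 did not pass the test. In limma's moderated test, 3 of 4 tested DAN and TIR genes were lower in bre1 at an adjusted p under 0.05 and none was higher, where 4.79% of all 3840 tested genes were lower and 5.89% were higher. The median mean log2 ratio of the 4 genes was -1.43, against 0.02 for all tested genes. Without array 2 the 3 calls were lost, at limma adjusted p-values of 0.0506 for TIR4 and DAN1 and 0.0642 for TIR2, in a fit where no gene of the 3840 passed and 815 had an unadjusted p under 0.05. TIR1 and DAN4 are listed with no value on any array, so these 2 of the 6 genes were not seen.

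TIR4 (YOR009W) encodes a GPI-anchored mannoprotein needed for growth without oxygen. It had log2 ratios of -2.67, -2.46, -1.57 and -1.56 on arrays 1 to 4. All 4 arrays lie far below 0, with arrays 3 and 4 almost equal and arrays 1 and 2 lower still. The gene was 4.19-fold lower in bre1 (mean log2 ratio -2.07 ± 0.58, SD, n = 4, limma adjusted p = 0.00711) and had the 2nd lowest mean of the 3840 tested genes.

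DAN1 (YJR150C) encodes a mannoprotein whose transcript is almost absent in air, and it is the gene in which much of the oxygen control of this group was worked out. Its log2 ratios were -1.96, -1.12, -1.94 and -1.11 on arrays 1 to 4. The arrays pair by dye, since both arrays with bre1 RNA in Cy3 averaged -1.95 and both with bre1 RNA in Cy5 averaged -1.12, and each orientation is below 0. DAN1 was 2.90-fold lower (mean log2 ratio -1.53 ± 0.48, SD, n = 4, limma adjusted p = 0.00711), the 5th lowest mean, and a dye term for the gene had an adjusted p of 0.154.

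TIR2 (YOR010C), a TIR gene also known to respond to cold, had log2 ratios of -1.69, -1.79, -1.02 and -0.80 on arrays 1 to 4. Every array is below 0 and, as for TIR4, arrays 1 and 2 are lower than arrays 3 and 4. The gene was 2.50-fold lower (mean log2 ratio -1.32 ± 0.49, SD, n = 4, limma adjusted p = 0.0112) and ranked 11th from the lowest. TIR2 and TIR4 are neighbours on chromosome XV, and within each gene the dye orientations gave similar means. TIR2 averaged -1.35 with bre1 in Cy3 and -1.30 with bre1 in Cy5. TIR4 was lower than TIR2 in both, at -2.12 with bre1 in Cy3 and -2.01 with bre1 in Cy5.

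TIR3 (YIL011W), which like TIR4 is needed for growth without oxygen, had log2 ratios of -0.91, -0.52, -0.34 and 0.24 on arrays 1 to 4. Arrays 1 to 3 are below 0 and array 4 is above. Its mean log2 ratio was -0.38 ± 0.48 (SD, n = 4, limma adjusted p = 0.225), with a 95% interval of -0.83 to 0.07, so a change of the size seen for TIR2 lies outside the interval.

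**Figure D1:**
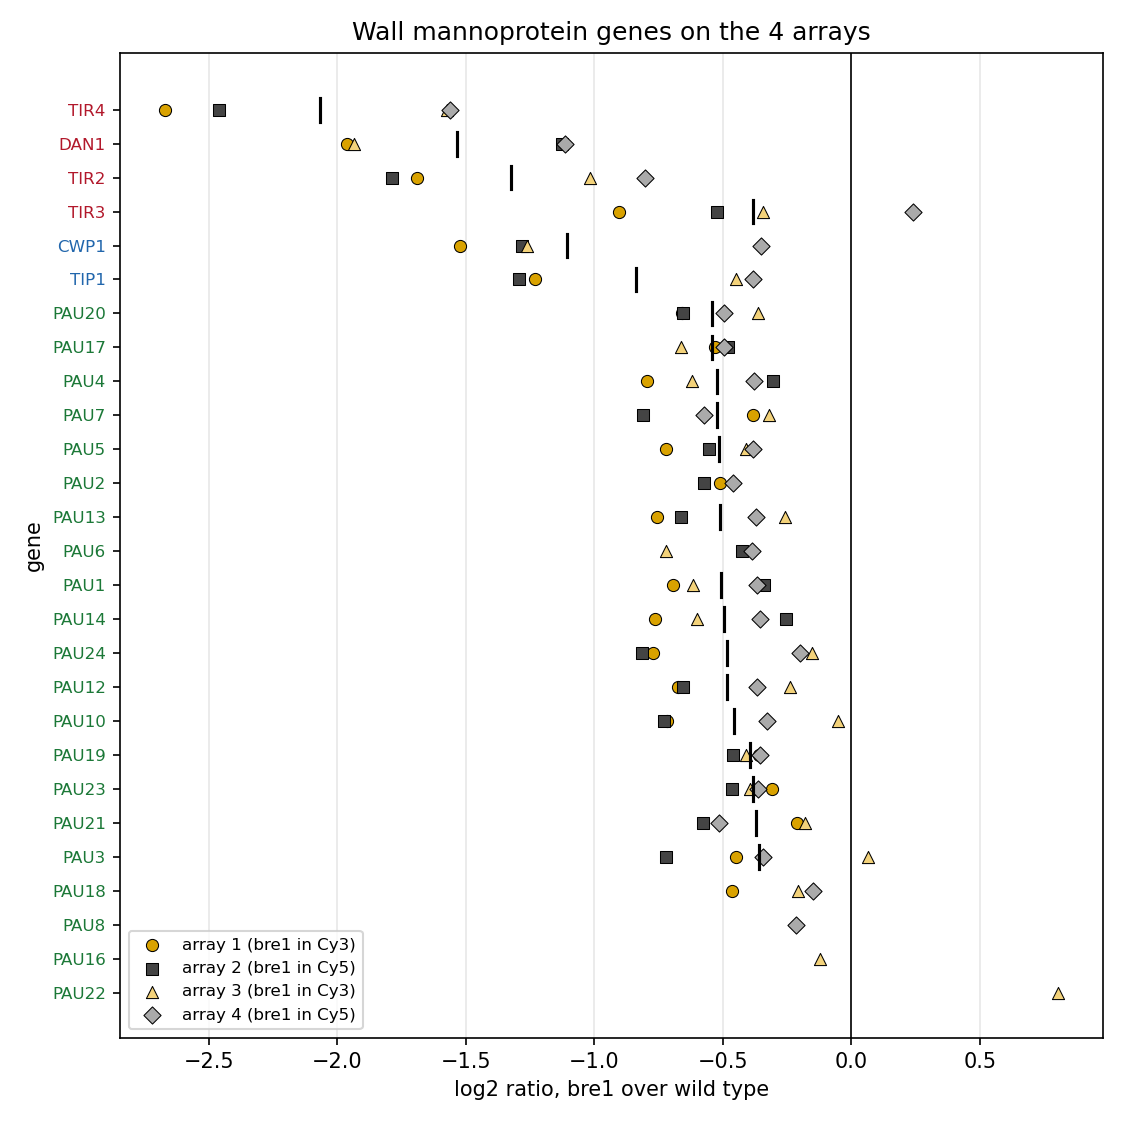
Log2 ratio of bre1 over wild type (x axis) for each of the 27 genes with a value (y axis, DAN and TIR genes in red, TIP1 and CWP1 in blue, PAU genes in green), with a symbol per array and a vertical bar at the mean of genes with all 4 values. TIR4, DAN1 and TIR2 lie to the left of every PAU gene on each array, and the PAU means lie between -0.54 and -0.36.

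The wall genes of aerated cells were lower as well, and both that were tested passed, against 4.79% of all tested genes. CWP1 (YKL096W), a mannoprotein gene whose product is placed in the birth scar, had log2 ratios of -1.52, -1.28, -1.26 and -0.35 on arrays 1 to 4. Arrays 1 to 3 lie together and array 4 stands nearer to 0. CWP1 was 2.15-fold lower in bre1 (mean log2 ratio -1.10 ± 0.52, SD, n = 4, limma adjusted p = 0.0205). TIP1 (YBR067C), a mannoprotein gene induced by cold, had log2 ratios of -1.23, -1.29, -0.45 and -0.38 on arrays 1 to 4. Arrays 1 and 2 are lower than arrays 3 and 4, and the orientations average -0.84 each. TIP1 was 1.79-fold lower (mean log2 ratio -0.84 ± 0.49, SD, n = 4, limma adjusted p = 0.0354). Both calls were lost without array 1, without array 2 and without array 3 (lowest limma adjusted p of the 2 genes 0.0667, 0.0974 and 0.0522), and both held without array 4. Called genes of the aerobic and of the anaerobic wall were thus on the same side of 0.

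The PAU genes had small ratios, nearly all below 0, and most did not pass the test. All 15 tested PAU genes had a mean below 0, where 47.4% of all tested genes did, and their means lay in a narrow band from -0.54 to -0.36 on the log2 scale. Of the 15, 14 were below 0 on all 4 arrays, where 16.6% of all tested genes were; the exception was PAU3. Only PAU20 and PAU17 passed the threshold, 13 did not and none was higher, although 14 of 15 had an unadjusted p under 0.05, as did 1158 of the 3840 tested genes. The share past the threshold, 13.3% of the PAU genes, stands beside 4.79% lower among all tested genes, and it rests on 2 genes just inside the threshold. PAU1, PAU4 and PAU7, at a limma adjusted p of 0.0595 each, and PAU5, at 0.0560, lie just outside it.

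PAU20 (YOL161C) had log2 ratios of -0.66, -0.66, -0.36 and -0.50 on arrays 1 to 4 and was 1.46-fold lower in bre1 (mean log2 ratio -0.54 ± 0.14, SD, n = 4, limma adjusted p = 0.0480). PAU17 (YLL025W) had -0.53, -0.48, -0.66 and -0.50 and was also 1.46-fold lower (mean log2 ratio -0.54 ± 0.08, SD, n = 4, limma adjusted p = 0.0442). For both genes all 4 arrays lie close together and below 0. Neither call held when any 1 of the 4 arrays was left out. In those 4 fits no PAU gene passed limma's test, and 4, 7, 13 and 12 had an unadjusted p under 0.05 without arrays 1, 2, 3 and 4. Both calls were also lost when genes with values on at least 3 arrays entered the fit, where no PAU gene passed, 16 of 18 had an unadjusted p under 0.05, and 4.11% of all genes in that fit were lower.

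The remaining PAU genes with 4 values differed from one another more in their pattern over arrays than in their mean. PAU1 (YJL223C), PAU4 (YLR461W) and PAU14 (YIL176C) had nearly the same values: -0.70, -0.80 and -0.77 on array 1, -0.34, -0.30 and -0.25 on array 2, -0.62, -0.62 and -0.60 on array 3, and -0.37, -0.38 and -0.36 on array 4. These 3 genes were lower on array 3 than on array 2. Of the other 12 tested PAU genes, 11 were higher on array 3 than on array 2, and PAU17 was the exception. PAU10, PAU24 and PAU3 lay at the other end, with array 3 at -0.05, -0.15 and 0.07 and array 2 at -0.73, -0.81 and -0.72.

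Between these ends lay PAU12 (YGR294W), PAU13 (YHL046C), PAU5 (YFL020C), PAU7 (YAR020C) and PAU21 (YOR394W). PAU12 had log2 ratios of -0.68, -0.66, -0.24 and -0.37 on arrays 1 to 4, and PAU13 had -0.76, -0.66, -0.26 and -0.37. Both were lower on arrays 1 and 2 than on arrays 3 and 4, with means of -0.48 and -0.51. PAU5 had -0.72, -0.55, -0.41 and -0.38, also lower on arrays 1 and 2, with a mean of -0.52. PAU7 had -0.38, -0.81, -0.32 and -0.57, and PAU21 had -0.21, -0.58, -0.18 and -0.52. These 2 genes were lower on both arrays with bre1 RNA in Cy5 than on either array with bre1 RNA in Cy3. PAU3 (YCR104W), the sole tested PAU gene with a value above 0, had -0.45 on array 1 and -0.34 on array 4. PAU10 had -0.72 on array 1 and -0.33 on array 4.

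Among all 105 pairs of tested PAU genes, the pairs were ranked by their largest difference on any array. The closest were PAU14 and PAU4 and then PAU23 and PAU19, each apart by at most 0.05, followed by PAU12 and PAU13 at 0.08 and PAU14 and PAU1 at 0.09. The median over pairs was 0.36, and PAU3 and PAU17 were the farthest apart at 0.73. The proteins of PAU1 and PAU14 are known to be identical. Probes may therefore read several copies, and the number of PAU genes may overstate the number of separate measurements. The proteins of PAU21 and PAU22, and those of PAU6 and PAU18, are also known to be identical. On array 3 these genes were apart, at -0.18 for PAU21 and 0.80 for PAU22, and -0.72 for PAU6 and -0.21 for PAU18. How far each probe separates the copies was not tested, since probe sequences were not used here.

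PAU23 and PAU19 were the steadiest members. PAU23, also known as DAN2, had log2 ratios of -0.31, -0.46, -0.39 and -0.36 on arrays 1 to 4, and PAU19 had -0.36, -0.46, -0.41 and -0.35. Their SDs over arrays were 0.06 and 0.05, the smallest in the set, and the means were -0.38 and -0.40. Neither passed limma's test (adjusted p = 0.108 and 0.0991), in which the moderated error is drawn towards that of all genes and was 0.14 for each. PAU24, also known as DAN3, had the widest spread of the PAU genes, with -0.77, -0.81, -0.15 and -0.20 and an SD of 0.36.

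PAU genes with fewer values leaned the same way, with a single exception. PAU2 had log2 ratios of -0.51, -0.57 and -0.46 on arrays 1, 2 and 4, and PAU6 had -0.43, -0.72 and -0.39 on arrays 2, 3 and 4. PAU18, whose protein is known to be identical to that of PAU6, had -0.47, -0.21 and -0.15 on arrays 1, 3 and 4. PAU8 had -0.22 on array 4 alone and PAU16 had -0.12 on array 3 alone. PAU22 had 0.80, also on array 3 alone, the highest value of any member. PAU21, whose protein is known to be identical to that of PAU22, had -0.18 on the same array. PAU11 and PAU15 had no value. Counted by array, 17 of 17 measured PAU genes were below 0 on array 1, 17 of 17 on array 2, 17 of 19 on array 3 and 19 of 19 on array 4. The shares of all measured frames below 0 on these arrays were 50.9%, 44.5%, 54.0% and 43.5%.

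The PAU genes were set beside the DAN and TIR genes on each array, as a description of values with no test, since the genes were chosen with earlier results of these data known. The PAU median was -0.68, -0.58, -0.36 and -0.37 on arrays 1 to 4, and the DAN and TIR median was -1.83, -1.46, -1.29 and -0.96. The PAU median of means was 0.93 above the DAN and TIR median on the log2 scale. TIR4, DAN1 and TIR2 lay below every measured PAU gene on each of the 4 arrays. The highest of the 3 minus the lowest PAU gene was -0.89, -0.31, -0.29 and -0.23 on arrays 1 to 4. TIR3, in contrast, had a mean inside the PAU band. The DAN and TIR means spread with an SD of 0.70 over 4 genes, and the PAU means with an SD of 0.06 over 15 genes.

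**Figure D2:**
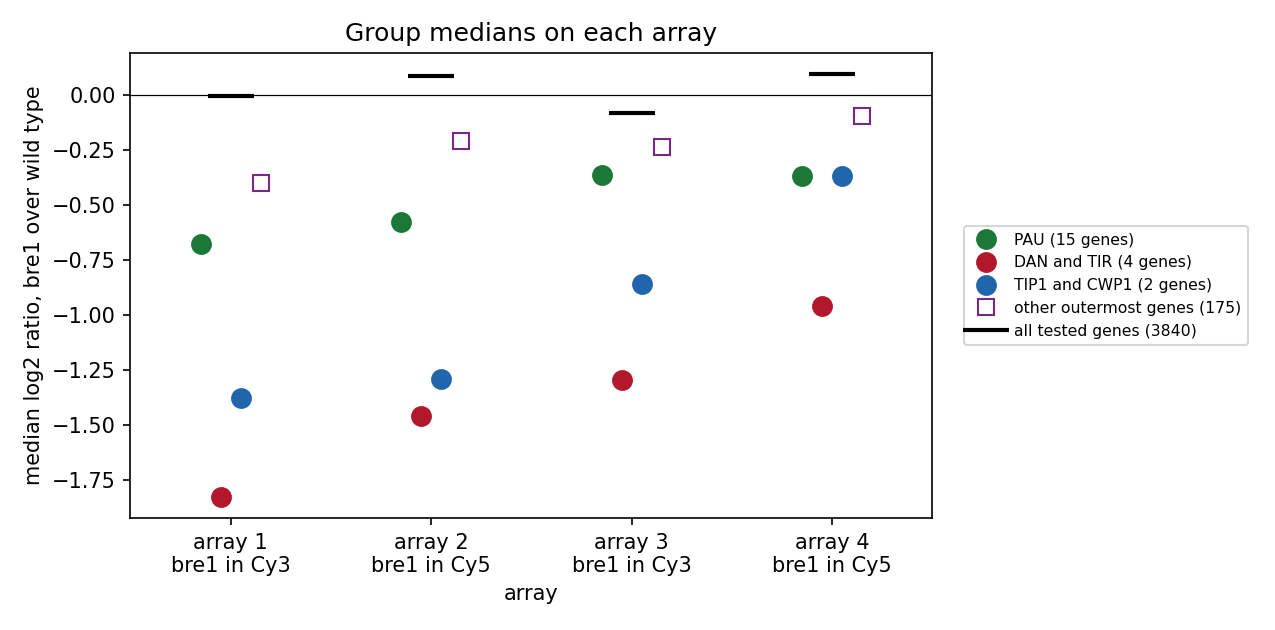
Median log2 ratio of bre1 over wild type (y axis) on each array (x axis) for the tested PAU genes, the DAN and TIR genes, TIP1 and CWP1, the other genes among the outermost 10 at each chromosome end, and all tested genes (black bars). On each array the DAN and TIR median is the lowest of the 5 groups and the PAU median is below that of the other outermost genes; on array 4 the PAU median meets that of TIP1 and CWP1 at -0.37.

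The mean of each dye orientation was below 0 for all 21 tested members. With bre1 RNA in Cy3 the PAU genes averaged between -0.71 for PAU4 and -0.19 for PAU3, and with bre1 RNA in Cy5 between -0.69 for PAU7 and -0.30 for PAU14. PAU14, PAU4 and PAU1 were lower with bre1 in Cy3, by 0.38, 0.37 and 0.30. PAU21, PAU3 and PAU7 were lower with bre1 in Cy5, by 0.35, 0.34 and 0.34. No dye term of a member passed limma's threshold; the adjusted p was lowest for DAN1. With a dye term in the fit, 9 of the 15 PAU genes were lower, where 10.9% of all genes in that fit were, and 897 genes in all passed, against 410 without the term.

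**Figure D3:**
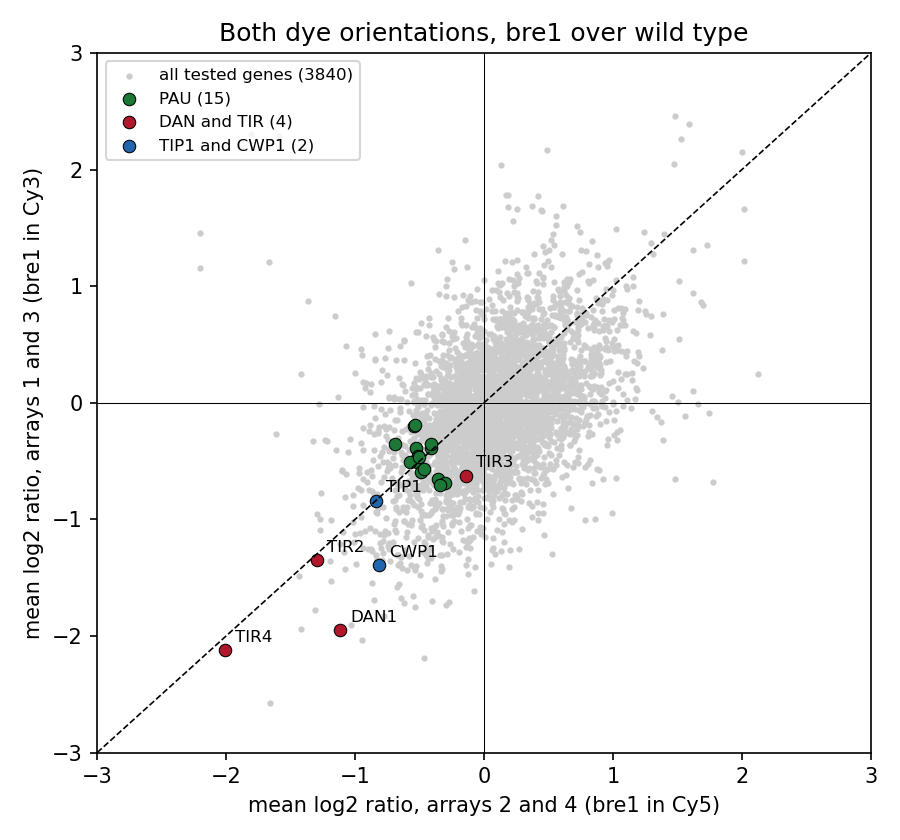
Mean log2 ratio of bre1 over wild type on arrays 1 and 3, with bre1 RNA in Cy3 (y axis), against that on arrays 2 and 4, with bre1 RNA in Cy5 (x axis), for all 3840 tested genes (grey) and the tested members. All 21 members lie below 0 on both axes; TIR4, TIR2 and TIP1 lie close to the dashed line of equal values, and DAN1 and CWP1 lie below it.

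Position along the chromosome was taken from gene order in a RefSeq gene table of assembly R64, counting protein-coding genes from the nearer end. By this count 11 of the 15 tested PAU genes were among the outermost 10, and PAU7, PAU17, PAU5 and PAU23 lay further in, at positions 15, 39, 46 and 100. Among the outermost PAU genes 1 of 11 was lower and the median was -0.48, and among those further in 1 of 4 was lower and the median was -0.52, where 4.79% of all tested genes were lower. The means ranged from -0.54 to -0.36 for the outermost PAU genes and from -0.54 to -0.38 for those further in, so the ranges overlap almost in full. DAN1 lies at position 12, just outside the outermost 10, with DAN4 at position 11. TIR2, TIR3, TIR4, CWP1 and TIP1 lie at positions between 56 and 180. The lowest ratios of the set were therefore not those of the genes nearest the ends.

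Other genes among the outermost 10 had a wide range of ratios. Of 175 tested, 38 were lower and 4 were higher (21.7% and 2.29%, against 4.79% and 5.89% of all tested genes), with a median of -0.22 and means from -1.36 to 1.19. Of 26 tested genes within 2 places of an outermost PAU gene, 7 were lower and none was higher, with a median of -0.31, and 14 had an unadjusted p under 0.05. Of the 7 that passed, the 6 with the largest change were YRF1-3 beside PAU12 (2.19-fold lower), YIL177C beside PAU14 (2.15-fold lower), GAB1 beside PAU4 (2.01-fold lower), YLL066C beside PAU18 (1.83-fold lower), ADH7 beside PAU3 (1.61-fold lower) and RDS1 beside PAU3 (1.60-fold lower). YRF1 genes lie at several chromosome ends, and whether the probes of these neighbours separate repeated copies was not tested. Of 14 tested neighbours of the PAU genes further in, none was lower in limma's test and the median was 0.07. Of these 14, 4 had an unadjusted p under 0.05. In that group CDC15, a kinase gene of mitotic exit that lies next to PAU7, was 3.72-fold higher (log2 ratio 1.90 ± 0.56, SD, n = 4, limma adjusted p = 0.00711), while PAU7 had a mean of -0.52.

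Most neighbours of the remaining wall genes did not pass the test. Of 15 tested, with a median of 0.06, 2 were lower (13.3%) and none was higher, against 4.79% and 5.89% of all tested genes. The 2 were the amino acid permease genes TAT1 and BAP2 beside TIP1, 1.96-fold and 1.73-fold lower. Next to DAN1, YJR149W had log2 ratios of 0.30, 0.19, 0.15 and 0.37 on arrays 1 to 4 and DAN1 had the values given above, so the genes lay on opposite sides of 0 on every array. DAL5, beyond DAN4, had a mean of -0.53 ± 0.21 (SD, n = 4, limma adjusted p = 0.0573). AUS1, a sterol uptake transporter gene that works without oxygen and lies beside TIR2, had log2 ratios of -1.41, -0.45 and -0.84 on arrays 1, 3 and 4 and was not tested. SLG1, on the other side of TIR4, had -0.64, -0.33 and 0.09 on arrays 1, 2 and 4 and was not tested either. DOT5, beside TIR3, had 0.77, 0.57, 0.06 and 0.22 on arrays 1 to 4 (limma adjusted p = 0.147), above 0 on every array. Next to TIR1, which had no value itself, YER010C had a mean of 0.13 ± 0.23 and PRE1, a proteasome subunit gene, had a mean of 0.71 ± 0.60 (SD, n = 4 each, limma adjusted p = 0.611 and 0.0740).

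**Figure D4:**
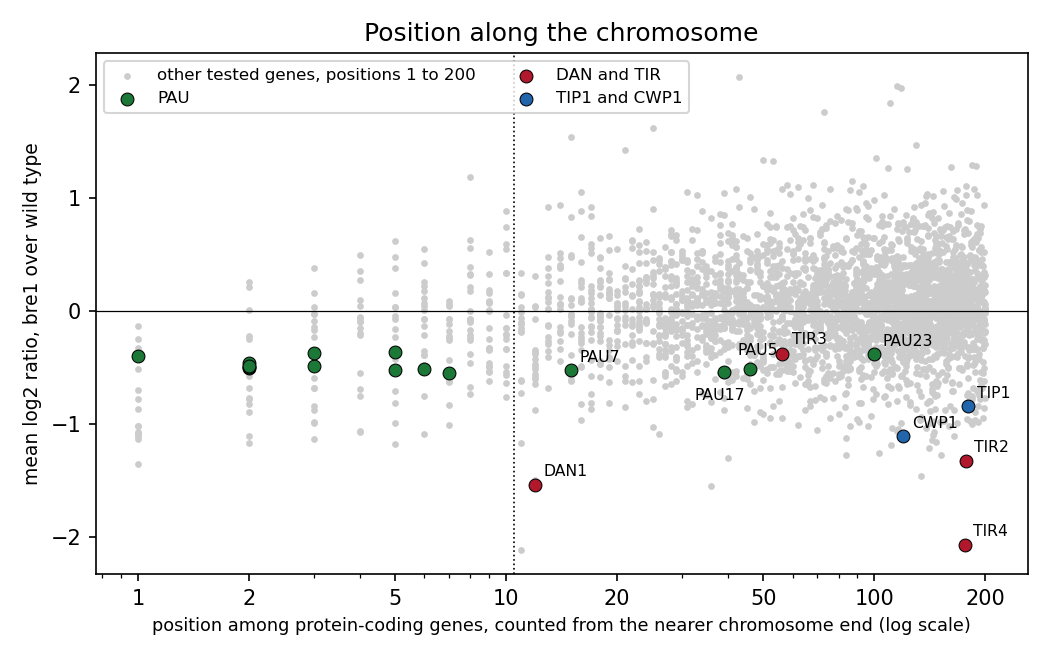
Mean log2 ratio of bre1 over wild type (y axis) against position among protein-coding genes counted from the nearer chromosome end (x axis, log scale), with other tested genes in grey and a dotted line at the limit of the outermost 10. The PAU genes form a level band from position 1 to position 100, and TIR4 and TIR2, at the right, and DAN1 lie lowest among the members.

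Gene length moved with the ratios on these arrays, and PAU genes are short, with tested members annotated at 168 to 495 bp. Among other tested genes of 300 to 500 bp, 50 of 249 were higher and 6 lower, the median was 0.36, and 55 had a mean below 0. All 15 PAU genes had a mean below 0, so they ran against most genes of their length. Among the 14 other outermost genes of 300 to 500 bp, 5 were lower and 1 was higher, with a median of -0.33. For DAN and TIR genes, TIP1 and CWP1, at 633 to 1464 bp, the matching genes of 600 to 1500 bp had a median of 0.04. With a smooth trend on length removed from each array, all 15 PAU genes were lower, where 7.54% of all genes in that fit were, with a median of -0.84, and the DAN and TIR median was -1.54. The distance between the medians was then 0.69. The part of gene length in these results was not tested.

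**Figure D5:**
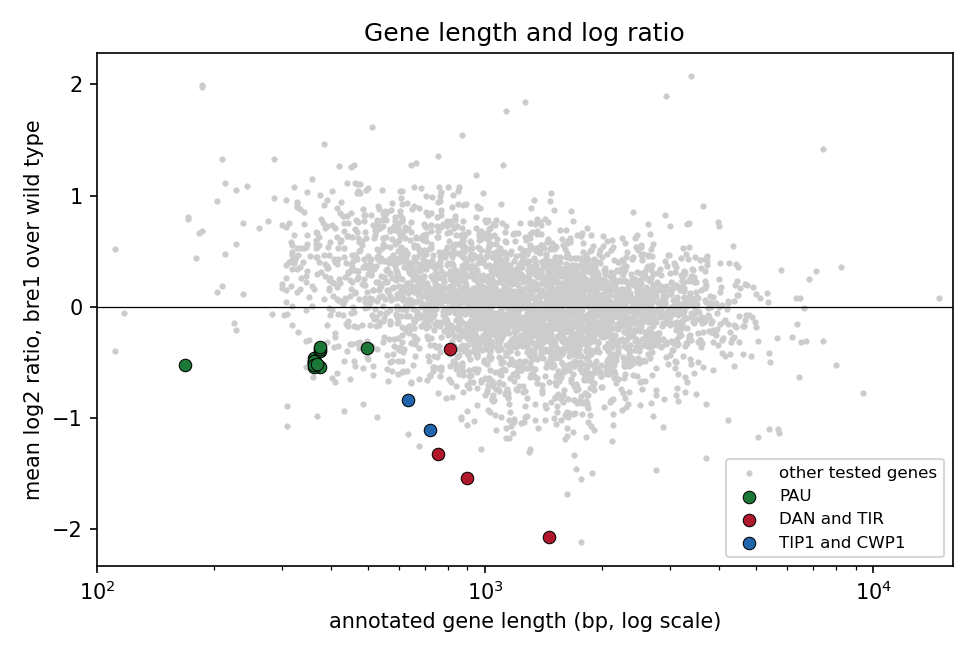
Mean log2 ratio of bre1 over wild type (y axis) against annotated gene length (x axis, bp, log scale) for all tested genes with a length (grey) and the tested members. The PAU genes lie below most grey points of their length, and TIR4, DAN1 and TIR2 lie at the lower edge of the cloud.

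Regulators of the anaerobic wall genes were read from a list of 11 genes. UPC2, ROX1 and SUT1 had no value on any array, and TUP1 had log2 ratios of -0.04 on array 1 and 0.53 on array 4. SUT2 had -0.13, -0.28 and -0.28 on arrays 1, 3 and 4. None of the 6 tested genes passed limma's test, where 4.79% of all tested genes were lower and 5.89% were higher. Of the 6, 1, HDA1, had an unadjusted p under 0.05, as did 1158 of the 3840 tested genes. HDA1, a histone deacetylase gene, had a mean of -0.36 ± 0.22, and RPD3, which encodes a deacetylase known to be required for induction of DAN and TIR genes, had a mean of 0.00 ± 0.26. The means were -0.36 ± 0.52 for ECM22, a close relative of UPC2, 0.12 ± 0.34 for the repressor gene MOT3, -0.09 ± 0.29 for HAP1, the haem-dependent activator, and 0.08 ± 0.45 for CYC8 (SD, n = 4 each). ECM22 had -0.98 and -0.60 with bre1 in Cy3 and 0.06 and 0.08 with bre1 in Cy5, so its orientations lay on different sides of 0.

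A list of other genes linked to low oxygen gave no call. Of 13 listed, 7 were tested, with a median of -0.20. None passed limma's test in either direction, where 4.79% of all tested genes were lower and 5.89% were higher. Of the 7, 2 had an unadjusted p under 0.05, as did 1158 of the 3840 tested genes. OLE1, the fatty acid desaturase gene, had log2 ratios of -1.62, -0.87, -1.41 and 0.11 on arrays 1 to 4 (mean -0.95 ± 0.77, SD, n = 4, limma adjusted p = 0.0544). COX5B, the hypoxic cytochrome oxidase subunit gene, had 1.01, 0.78, 0.52 and 0.15 (mean 0.61 ± 0.37, SD, n = 4, limma adjusted p = 0.0575). OLE1 lay below 0 on 3 arrays and COX5B above 0 on all 4.

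Of 19 further genes of GPI-anchored wall proteins, 13 were tested, with a median of -0.39. Of the 13, 1 was lower and 1 was higher (7.69% each). These shares are near those of all tested genes, 4.79% lower and 5.89% higher. The means leaned below 0 all the same, for 11 of the 13, where 47.4% of all tested genes had a mean below 0. Below 0 on all 4 arrays were 4 of the 13, where 16.6% of all tested genes were. An unadjusted p under 0.05 in limma's test was found for 5 of the 13, and for 1158 of the 3840 tested genes. ECM33, needed for an intact mannoprotein layer, had log2 ratios of -1.85, -1.01, -0.80 and -0.27 on arrays 1 to 4 and was 1.98-fold lower (limma adjusted p = 0.0369). HPF1, a mannoprotein gene, had 0.13, 0.87, 1.12 and 1.19 and was 1.78-fold higher (limma adjusted p = 0.0368). For each of these genes all 4 arrays lie on 1 side of 0. The flocculin genes FLO1, FLO5, FLO9 and FLO10, which mediate cell adhesion, had means of -0.43, -0.44, -0.34 and -0.04, and none passed. FLO11 had 0.59 on array 3 alone and was not tested. CCW12, an abundant wall protein gene, had -1.38 and -0.97 with bre1 in Cy3 and -0.15 and -0.07 with bre1 in Cy5, a wider dye gap than that of DAN1.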

How the data were processed

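The authors deposited 1 log2 ratio per reading frame and array. For RNA extraction and labelling the labels point to another publication, which was not consulted; how the ratios were normalized or background-corrected is not given in the sources used here. The values of each array are base-2 logarithms of whole multiples of a single step, on arrays 1 and 3 after the sign is turned. Beyond the logarithm and the inversion on arrays 1 and 3, only a constant factor per array was thus applied after the ratio was recorded. Without scanner intensities, dim spots could not be left out, and having only 4 arrays limits the precision.

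Genes with values on all 4 arrays (3840 of 5500) were fitted with limma 3.58.1 in R 4.3.3: lmFit with an intercept alone, eBayes, two-sided test against 0, Benjamini-Hochberg adjustment over 3840 genes, threshold 0.05. Errors are SDs over arrays. The test was tried on simulated data. Members, lists and tests were chosen with earlier results of these data known. Members are named throughout, and regulators in full. Of other lists, up to 4 genes past the threshold are named, or the 2 with the smallest p. Neighbours were taken by group: of outermost PAU genes, of PAU genes further in, and of the remaining wall genes. In each group at most 6 past the threshold are named, and also those next to DAN and TIR genes. FLO1, FLO5, FLO9, FLO10, FLO11, CCW12 and SLG1 were chosen after their values were seen. Names, lengths and gene order came from a RefSeq table of assembly R64, which matched 5470 frames; the values name no build, so no coordinates are given. Alternatives were leaving out each array, centring, scaling, a missing-value filter, a length trend (loess), a dye term, array weights, a robust prior and turned signs.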

Additional observations from a re-analysis of the deposited data

How the results depend on the processing

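Every tested member kept a mean below 0 in the 11 alternative fits with the signs as deposited. The DAN and TIR count of 3 ranged from 0 to 3 when 1 array was left out. It was 0 without array 2, where no gene of the 3840 passed limma's test, 815 had an unadjusted p under 0.05, and TIR4, DAN1 and TIR2 were among them; in every other fit with the signs as deposited it was 3. The PAU count of 2 was 0 without any 1 array and 0 with genes measured on at least 3 arrays. It was 5 with arrays centred on their median, 15 with the length trend removed, 9 with a dye term and 9 with array weights. The count for TIP1 and CWP1 ranged from 0 to 2 when 1 array was left out. The count over all genes, 410, ranged from 0 to 677 when 1 array was left out and was 897 with a dye term and 685 with array weights. With the length trend removed, the PAU median moved to -0.84 and its distance to the DAN and TIR median to 0.69. With the signs of arrays 1 and 3 turned, medians were -0.022 for PAU, 0.15 for DAN and TIR, 0.14 for TIP1 and CWP1, and -0.17 for the distance, and no gene passed limma's test (208 with an unadjusted p under 0.05). Leaving out 1 array kept the medians between -0.54 and -0.42 for PAU, -1.59 and -1.30 for DAN and TIR, and -1.17 and -0.84 for TIP1 and CWP1, and the distance between 0.87 and 1.05. No paired analysis was possible because the arrays form 1 group, beyond the pairing of bre1 with wild type that each ratio already holds. Collapsing near-identical copies by protein identity was not run, since no protein sequences were used. Signal over background is unknown here.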
